A study of Mus musculus with 4 samples.

Results

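The genes described here are those of the common gamma chain cytokine receptors and of the 2 Janus kinases bound to them: Il2ra, Il2rb, Il2rg, Il4ra, Il7r, Il9r, Il15ra, Il21r, Jak1 and Jak3. They were chosen by gene name, and all 10 were found among the 54532 genes of the deposited table. The libraries were made from mouse spleen CD4+ T cells of wild-type genotype. Naive cells were cultured for 3 days toward the T follicular helper (Tfh) fate, whose cells sustain germinal centre antibody responses. The control group had no treatment and the other group had dimethyl fumarate (DMF), an electrophilic ester and known Nrf2 activator, with 2 libraries in each group. All 4 libraries share the Tfh conditions, so none shows the cells before culture. The dose of DMF, the strain and the age of the mice, and whether the 2 libraries of a group came from separate mice or cultures, were not given in the sources used here, so p-values measure only the spread between these libraries, which may be technical.

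The common gamma chain, encoded by Il2rg, pairs with private receptor chains to make the receptors of IL-2, IL-4, IL-7, IL-9, IL-15 and IL-21. JAK3 binds the gamma chain and JAK1 binds the partner chain, and together they activate STAT transcription factors, chiefly STAT5 for IL-2, IL-7, IL-9 and IL-15, STAT6 for IL-4 and STAT3 for IL-21. In helper T cells, IL-7 keeps resting cells alive, IL-2 through STAT5 opposes the Tfh fate, and IL-21 supports it.

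Promoter bases are shown for 3 of the genes. Il7r and Il9r had the largest ratios between the groups, in opposite directions, and Il7r and Il21r held the motif matches. RefSeq (GRCm38.p6) promoters were at hand for 9 of the 10 genes, all but Il2rb. Each line gives the 250 bases before the start site, 5′ to 3′. Capitals mark the STAT motif TTCNNNGAA, which is its own reverse complement, and the FOXO core GTAAACA on either strand. FOXO1 is known to drive Il7r.
Il7r (chr15:9529877-9530126, minus strand): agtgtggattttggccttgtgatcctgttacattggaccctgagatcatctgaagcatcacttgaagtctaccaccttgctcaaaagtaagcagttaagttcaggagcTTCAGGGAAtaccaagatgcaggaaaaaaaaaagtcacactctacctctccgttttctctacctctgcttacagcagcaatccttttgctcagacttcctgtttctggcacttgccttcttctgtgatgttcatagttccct
Il9r (chr11:32200280-32200529, minus strand): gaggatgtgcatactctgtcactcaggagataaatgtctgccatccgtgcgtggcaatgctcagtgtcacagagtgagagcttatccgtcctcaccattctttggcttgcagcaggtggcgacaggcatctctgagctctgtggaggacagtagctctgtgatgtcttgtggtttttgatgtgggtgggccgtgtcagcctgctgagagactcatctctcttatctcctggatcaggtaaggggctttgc
Il21r (chr7:125603179-125603428, plus strand): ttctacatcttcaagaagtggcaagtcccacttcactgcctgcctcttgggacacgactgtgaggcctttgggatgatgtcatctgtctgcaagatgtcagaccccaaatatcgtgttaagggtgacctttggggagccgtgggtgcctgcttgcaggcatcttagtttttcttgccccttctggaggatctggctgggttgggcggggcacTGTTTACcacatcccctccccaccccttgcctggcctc
Il7r held TTCAGGGAA, whose first base lies at position -142 from the start site, and 8.3% of the 32851 RefSeq promoter windows of 300 bases (250 before and 50 after the start site) held a STAT match. Il21r held the FOXO core on the minus strand at position -38, where 3.65% of windows held a match. The 2 motifs do not overlap in these windows, and no other match lay in the windows of the 9 genes. A match describes letters in the window and shows no binding. The Il7r window lies upstream of the RefSeq start site but within the longer gene span of GENCODE M21, where the noncoding transcript Il7r-203 has an exon at chr15:9530041-9530176 and the match falls in its intron. No GENCODE transcript overlaps the Il9r and Il21r windows.

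The DMF libraries held less RNA of most receptor chains than both controls, and RNA of the 2 kinases at levels between those of the controls. Il7r was 13.3-fold lower, Il2rb 2.14-fold lower, and Il2ra, Il2rg, Il4ra and Il21r 1.30-fold to 1.62-fold lower, by group means of FPKM (deposited fragment counts divided by gene length and library size). Both DMF libraries lay below both controls for these 6 of the 10 genes, where 26.8% of the 12166 genes with a mean of at least 1 FPKM did. Il9r, at very low levels, was higher in each DMF library than in either control, as were 26.4% of those genes. Il15ra, Jak1 and Jak3 overlapped between the groups, as did 46.8% of those genes. limma on log2(FPKM + 1) passed 0 of the 9 genes tested, as it passed 0% of all tested genes, at a Benjamini-Hochberg adjusted p under 0.05. Of the 9, 4 had an unadjusted p under 0.05, all lower in DMF (Il7r, Il2rb, Il4ra and Il2ra), against 6.31% of tested genes lower at that level and 3.14% higher. Reads recovered from the FPKM, tested with voom, also passed 0 genes at the adjusted level, with 4 of the 9 at an unadjusted p under 0.05. Over all tested genes 1150 had an unadjusted p under 0.05 in limma and 1168 with voom. Under quantile normalization 3 genes, Il2rb, Il2rg and Il7r, lay below both controls. In such bulk RNA, fewer cells that make a transcript and less of it per cell cannot be told apart.

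**Figure D1:**
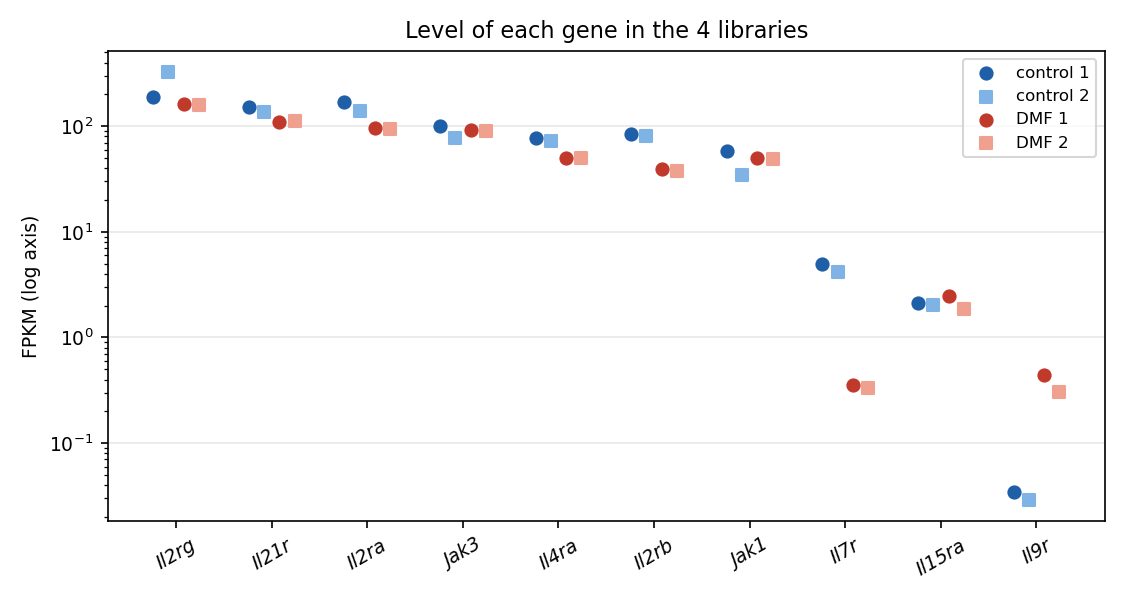
FPKM of each gene (log axis) in the 4 libraries, with controls in blue and DMF libraries in red, ordered by mean level. Il7r was at 4.14 to 4.997 FPKM in the controls and 0.33 to 0.352 in the DMF libraries, while Jak1 and Jak3 of the DMF libraries lie between the controls.

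Control replicate 2 differed from control replicate 1 more than the DMF libraries differed from each other, with an SD of the log2 difference over tested genes of 0.745 against 0.316. Among the genes described here the difference between the controls was greatest for the shortest and the longest gene. It was 0.78 on the log2 scale for the shortest, Il2rg (2387 bp), and -0.74 for the longest, Jak1 (7227 bp), with -0.39 to -0.05 for the 8 genes between. Between the DMF libraries Il2rg and Jak1 differed by -0.05 and -0.03. Each value for Il2rg and Jak1 therefore depends on which control is used, and both are given below.

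**Figure D2:**
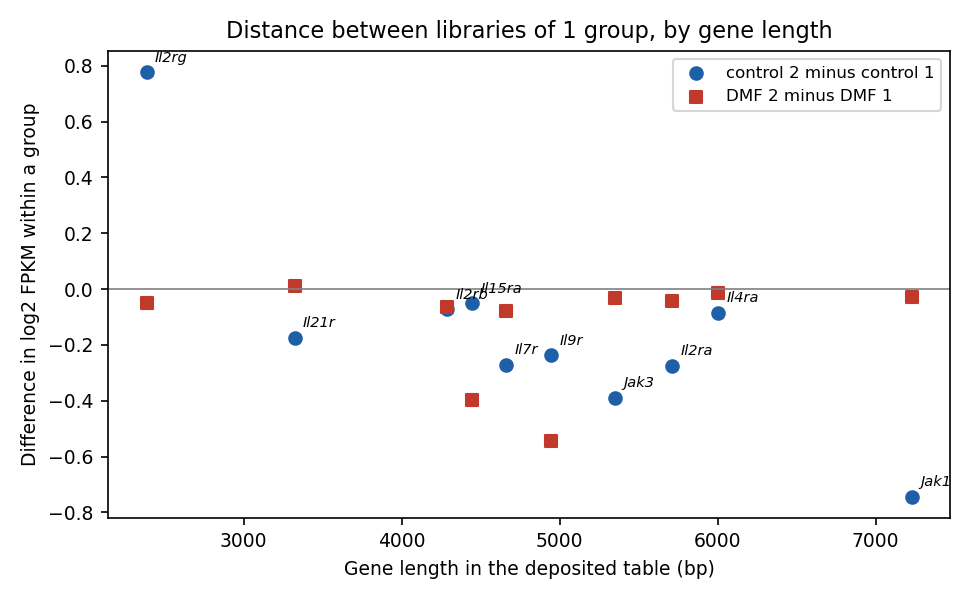
Difference in log2 FPKM between the libraries of a group for each gene, against the gene length in the deposited table, with controls in blue and DMF libraries in red. Il2rg at 0.78 and Jak1 at -0.74 stand apart between the controls, and the red points of the 2 genes lie near 0.

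Of the signalling chains, Il2rg (ENSMUSG00000031304, GRCm38 chrX:101264378-101268255, minus strand), the chain shared by all 6 receptors, had the highest level. It was at 189 and 325 FPKM in the controls and at 162 and 157 FPKM in the DMF libraries. The DMF libraries lay close together below both controls, and control replicate 2 was the high one. The difference was -0.63 ± 0.35 on the log2 scale (SE, 2 libraries a group, limma adjusted p = 0.561). It was -0.24 without control replicate 2 (adjusted p = 0.0585) and -1.02 without control replicate 1 (adjusted p = 0.00163). Under quantile normalization it was -0.08, and with the gene length trend removed it was -0.40.

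Il2rb (ENSMUSG00000068227, chr15:78479256-78495271, minus strand) encodes the chain that IL-2 and IL-15 receptors share. It was at 84.5 and 80.4 FPKM in the controls and at 39.3 and 37.6 FPKM in the DMF libraries. The 2 libraries of each group lay close together and the groups were far apart. The difference was -1.08 ± 0.19 on the log2 scale (SE, 2 libraries a group, limma adjusted p = 0.245). Without control replicate 1 it was -1.05 and without control replicate 2 it was -1.12. CD8 T cells and NK cells carry this chain at high levels. All 3 CD8 T cell markers were also lower in both DMF libraries, where 26.8% of all tested genes were. Their summed level was 7.57 to 12.4 FPKM in the controls and 2.17 to 2.86 in the DMF libraries. Of 5 NK cell markers, 2 were lower, beside the same 26.8%, and the sum was 5.59 to 9.44 FPKM against 0.181 to 0.790. Klrd1 made up most of each sum, at 5.28 and 8.85 FPKM in the controls and 0.128 and 0.753 under DMF. Klrk1, also lower, was at 0.306 and 0.440 FPKM in the controls and 0.0532 and 0.0373 under DMF. Of the defining NK markers, Ncr1 and Klrb1c had 0 reads in all 4 libraries. The part of these cells in the Il2rb difference was not tested.

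Il2ra (ENSMUSG00000026770, chr2:11642807-11693193, plus strand), which gives the IL-2 receptor its high affinity, was at 170 and 140 FPKM in the controls. In the DMF libraries it was at 97.1 and 94.2 FPKM, below both. The difference was -0.68 ± 0.23 on the log2 scale (SE, 2 libraries a group, limma adjusted p = 0.504), and under quantile normalization it was -0.29. Regulatory T cells are rich in this chain. Their 3 markers summed to 6.82 to 9.28 FPKM in the controls and 1.02 to 1.44 in the DMF libraries. Lrrc32 made up most of the control sum, at 6.96 and 5.51 FPKM, and was at 0.385 and 0.114 under DMF. Foxp3 was low throughout, at 1.10 and 0.612 FPKM in the controls and 0.260 and 0.188 under DMF. Foxp3 and Lrrc32 were lower in both DMF libraries, where 26.8% of all tested genes were, and Ikzf2 overlapped. The part of these cells in the Il2ra difference was not tested. A second row of the table, Gm37881, overlaps Il2ra on the same strand at 11.8 to 26.8 FPKM, and how shared reads were counted was not given in the sources used here.

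Il15ra (ENSMUSG00000023206, chr2:11705290-11734317, plus strand), which presents IL-15, starts 12096 bp beyond the end of Il2ra, with no gene of the table between. It was low throughout, at 2.11 and 2.03 FPKM in the controls and 2.46 and 1.87 in the DMF libraries. The DMF libraries lay on either side of the controls. The difference was 0.04 ± 0.21 on the log2 scale, with a 95% interval of -0.54 to 0.61 (n = 2 per group, limma adjusted p = 0.935).

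Il4ra (ENSMUSG00000030748, chr7:125552120-125579474, plus strand), the IL-4 binding chain, was at 77.1 and 72.7 FPKM in the controls and at 49.9 and 49.4 FPKM in the DMF libraries. The spread within each group was small beside the gap between them. The difference was -0.58 ± 0.19 on the log2 scale (SE, 2 libraries a group, limma adjusted p = 0.498), and -0.31 under quantile normalization.

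Il21r (ENSMUSG00000030745, chr7:125603429-125633570, plus strand) binds IL-21 and lies 23954 bp beyond Il4ra, again with no gene of the table between. It was at 153 and 135 FPKM in the controls and at 110.3 and 111 FPKM in the DMF libraries, below both controls. The difference was -0.38 ± 0.22 on the log2 scale (SE, 2 libraries a group, limma adjusted p = 0.561). Under quantile normalization it was 0.03, so the direction did not hold under every scaling. With scaling by a trimmed mean of log ratios it was -0.35. B cells also use Il4ra and Il21r. Of 7 B cell markers, 5 were higher in both DMF libraries and Ighm was lower, beside 26.4% and 26.8% of all tested genes. The summed level of the 7 was 81.4 and 121 FPKM in the controls and 86.2 and 85.3 in the DMF libraries. The part of B cells in these values was not tested.

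Il7r (ENSMUSG00000003882, chr15:9505788-9530176, minus strand), the IL-7 binding chain and a mark of naive and memory T cells, was at 4.997 and 4.14 FPKM in the controls. It was at 0.352 and 0.33 FPKM in the DMF libraries. These values rest on 413 and 269 control reads and on 30 and 29 reads under DMF. Reads over the library size implied by FPKM gave a rate 0.0741 times that of the controls. Its exact interval of 0.0558 to 0.0967 at 95% covers counting error only. On the log2(FPKM + 1) scale, which understates changes of low genes, the difference was -2.05 ± 0.21 (SE, 2 libraries a group, limma adjusted p = 0.176). With a pseudocount of 0.1 it was -3.39, and voom on recovered reads gave -3.71 with an adjusted p of 0.12. Il7r was also the gene described here with a call under the replicate block, where its adjusted p was 4.6e-06, it was lower, and 4.54% of all tested genes passed (2.87% as lower). Under that block the SE of Il7r was 0.37, above that of the main fit, so this p rests on variance pooled over genes. It does not show a closer spread of Il7r between libraries. The labels do not tie replicate numbers to a shared animal or day.

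Il9r (ENSMUSG00000020279, chr11:32187541-32200279, minus strand), the IL-9 binding chain, was below the level needed for the main test. Its controls held 3 and 2 reads and its DMF libraries 40 and 28. In FPKM these are 0.0342 and 0.0290 in the controls and 0.442 and 0.303 in the DMF libraries. The rate over the library size implied by FPKM was 11.6 times that of the controls. Its exact interval was 4.75 to 37.0 at 95% for counting error only. In limma with no filter on low values the difference was 0.41 on the log2(FPKM + 1) scale, with an adjusted p of 0.463. Even in the DMF libraries Il9r stayed under 0.5 FPKM.

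Both kinases overlapped between the groups, as did Il15ra among the receptor chains and 46.8% of all tested genes. Jak1 (ENSMUSG00000028530, chr4:101152367-101265282, minus strand), which binds the partner chains, was at 58.0 and 34.6 FPKM in the controls and at 49.98 and 49.1 FPKM in the DMF libraries. Jak3 (ENSMUSG00000031805, chr8:71676296-71690575, plus strand), which binds the gamma chain, was at 101 and 77.4 FPKM in the controls and at 92.1 and 90.2 FPKM in the DMF libraries. For both genes the DMF libraries lay between the controls, nearer to control replicate 1. The differences on the log2 scale were 0.14 for Jak1, with a 95% interval of -0.67 to 0.95, and 0.04 for Jak3, with an interval of -0.60 to 0.68 (n = 2 per group, limma adjusted p = 0.818 and 0.936). Both intervals hold differences as large as that of Il4ra, so the data do not show equal kinase levels. Without control replicate 1 both were higher in DMF, by 0.50 and 0.23, and without control replicate 2 both were lower, at -0.22 and -0.15. Under quantile normalization they were 0.35 and 0.40. The Jak3 row overlaps Insl3 on the same strand, which was listed at 24.6 to 31.9 FPKM, and reads of the pair may be shared or split.

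**Figure D3:**
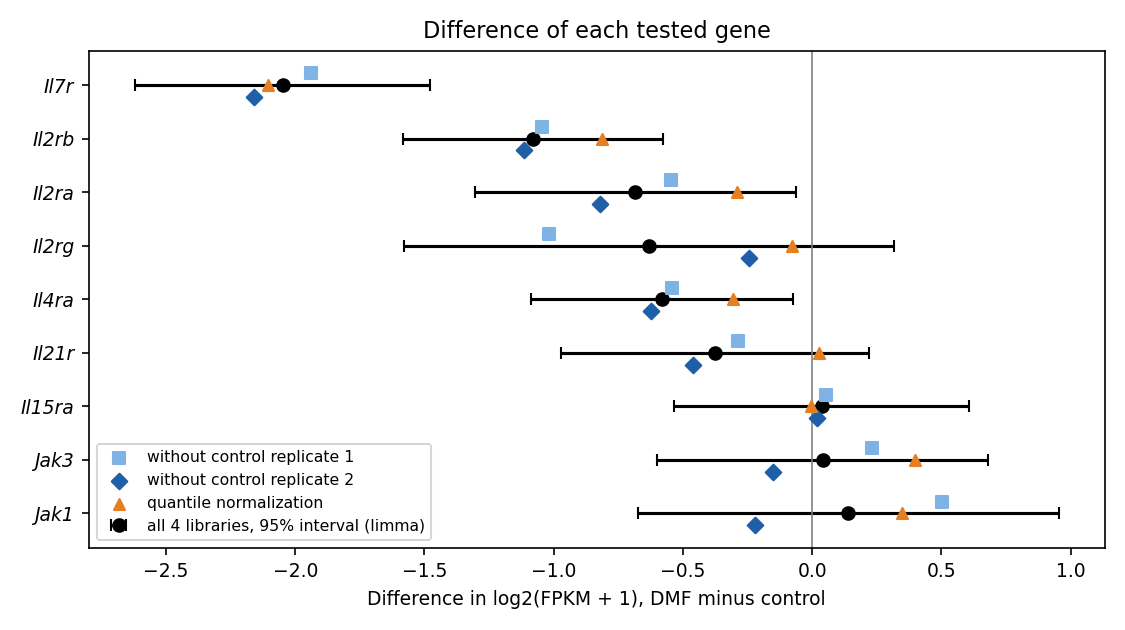
Difference in log2(FPKM + 1), DMF minus control, for the 9 tested genes. Black points and bars are the limma estimate and its 95% interval over all 4 libraries, and coloured points are the same value without either control and under quantile normalization. Il7r, Il2rb, Il2ra, Il4ra and Il2rg lie below 0 under each of these settings, and Jak1 and Jak3 lie on both sides of 0.

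With 1 control left out, limma takes the lone control to vary like the DMF libraries. Without control replicate 1 it passed 8 of the 9 tested genes, all but Il15ra, where 61% of all tested genes passed. Of these 8, 6 were lower and 2, the kinases, higher, where 33.4% of tested genes passed as lower and 27.6% as higher. Without control replicate 2 it passed 5 of the 9, all lower, where 8.28% of all tested genes passed, 5.51% as lower and 2.77% as higher. The 5 genes Il2ra, Il2rb, Il4ra, Il7r and Il21r passed as lower in both settings, as did 4.64% of tested genes. Both DMF libraries are shared between the settings, while the remaining control differs, so these counts are not independent.

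Levels per gene length set the order of the chains within each group. In the controls Il2rg came first, then Il2ra and Il21r, whose ranges overlapped, then Jak3 and Il2rb, whose ranges also overlapped, then Il4ra, Jak1, Il7r, Il15ra and Il9r without overlap of neighbours. In the DMF libraries the order was Il2rg, Il21r, Il2ra, Jak3, then Il4ra and Jak1, which overlapped, then Il2rb, Il15ra, and last Il9r and Il7r, which overlapped. Il2ra thus stood below Il21r in both DMF libraries, Il2rb moved from above Il4ra to below it, and Il7r from above Il15ra to below it.

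The 8 receptor chains summed to 680 and 760 FPKM in the controls and to 462 and 452 FPKM in the DMF libraries. Both DMF libraries lay below both controls. Il2rb made up 12.4% and 10.6% of that sum in the controls and 8.50% and 8.31% in the DMF libraries. Il7r made up 0.734% and 0.545% against 0.0761% and 0.0737%. The share of Il2rg was 27.8% and 42.7% in the controls, with 35.1% and 34.8% in the DMF libraries between them.

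**Figure D4:**
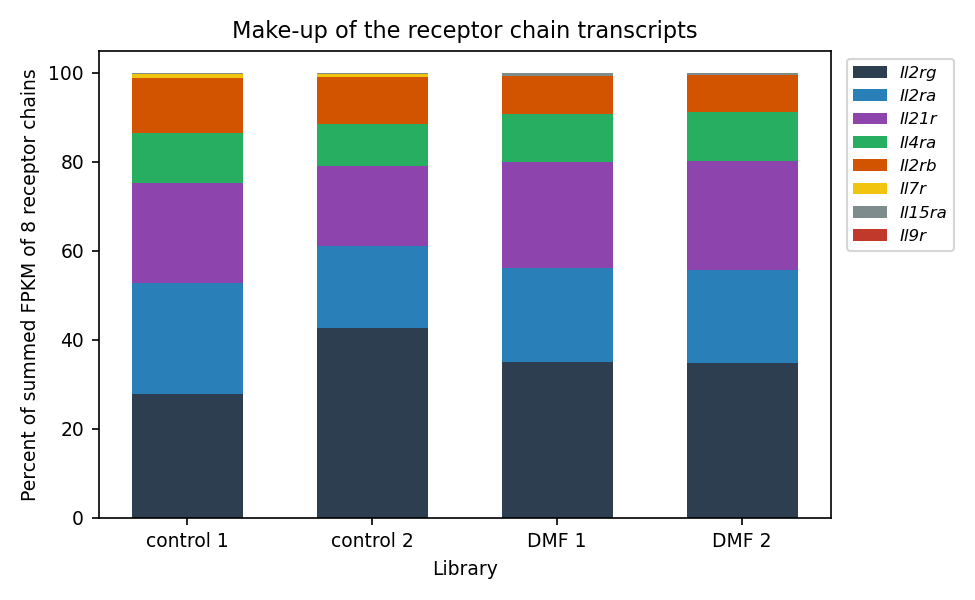
Percent of the summed FPKM of the 8 receptor chains taken by each chain, in each library. The Il2rb share is 12.4% and 10.6% in the controls and 8.50% and 8.31% in the DMF libraries, and the Il2rg share of control replicate 2, 42.7%, is the highest of the 4.

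Ratios within a library cancel its scaling, though not a length trend. Il2ra over Il2rb was 2.01 and 1.75 in the controls and 2.47 and 2.51 in the DMF libraries, higher in both. Il2rb over Il2rg was 0.446 and 0.248 in the controls and 0.242 and 0.239 in the DMF libraries, so that control replicate 2 stood near the DMF libraries. Il7r over Il2rg was 0.0264 and 0.0128 in the controls and 0.00217 and 0.00212 in the DMF libraries. Il2ra, Il4ra and Il21r over Il2rg overlapped between the groups, as did Jak1 over Jak3, at 0.572 and 0.447 in the controls and 0.543 and 0.544 in the DMF libraries. An exact two-sided permutation test of 2 against 2 libraries cannot go below 0.33, and this was the p of each ratio without overlap.

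Patterns across the 4 libraries were compared by Euclidean distance between log2(FPKM + 1) values centred per gene. Among all tested genes, leaving out predicted genes and pseudogenes, Stat5a and Pitpnm1 lay nearest to Il21r (distance 0.0352 and 0.0356), and Abca7 and Ntng2 nearest to Il2ra (0.0395 and 0.0479). Il2rb had Gpr146 and Egln3 (0.0504 and 0.0716), Il4ra had Rab3d and Samhd1 (0.0222 and 0.0397), and Il7r had Cxcr1 and Mov10 (0.0759 and 0.17). Il2rg had Emc9 and Yipf3 (0.0234 and 0.0269), both also high in control replicate 2. For Jak1 they were Slc12a7 and Znrf3 (0.0195 and 0.0258), for Jak3 Map4 and Crbn (0.0253 and 0.0274), and for Il15ra Kantr and Nln (0.0387 and 0.0459). Within the family, Il2ra and Il4ra were each other's nearest (0.168), as were Jak1 and Jak3 (0.262). Over 4 libraries such likeness describes these samples only.

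Of the 6 cytokines that the receptors bind, Il2 and Il21 passed the level filter, and limma passed neither. Il2, which activated T cells make, was at 461 and 858 FPKM in the controls and at 499 and 488 FPKM in the DMF libraries, between the controls. Il21, the Tfh cytokine, was at 31.2 and 25.5 FPKM in the controls and at 9.17 and 10.8 FPKM in the DMF libraries, below both (-1.42 ± 0.20 on the log2 scale, SE, 2 libraries a group, limma adjusted p = 0.201). Il4 had 9 and 26 control reads and 3 in either DMF library. Il9 had 2 and 3 control reads and 0 in either DMF library, where a count of 0 allows up to 3 reads, and Il7 and Il15 had at most 9 reads in any library.

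Of the related chains and kinases, limma passed 0 of 3 tested in either direction. Jak2 and Tyk2, the other Janus kinases, were above both controls under DMF in each library, where 26.4% of all tested genes were. Their differences were 0.43 and 0.31 on the log2 scale. Jak2 was at 139.7 and 91.9 FPKM in the controls and at 151.8 and 153.3 FPKM in the DMF libraries. Tyk2 was at 15.15 and 10.05 FPKM in the controls and at 15.3 and 15.75 FPKM in the DMF libraries. For both genes control replicate 2 was the lower control, and the DMF libraries lay nearer to control replicate 1. Crlf2, which pairs with the IL-7 receptor chain to bind the cytokine TSLP, was at 38.9 and 70.1 FPKM in the controls and at 47.0 and 53.2 FPKM in the DMF libraries. Among the STAT genes, limma passed none of Stat5a, Stat5b, Stat3 and Stat6, nor any other gene tested. Stat5a lay below both controls, with a difference of -0.34, while Stat5b (-0.10), Stat3 (0.09) and Stat6 (0.07) overlapped.

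Of 10 genes listed here as inhibitors of the signal, limma passed 0. Of the 10, 4 lay below both controls and 3 above both, beside 26.8% and 26.4% of all tested genes. The 4 were the STAT-induced genes Socs3, Socs2, Cish and Socs1, with differences of -2.86, -2.73, -1.96 and -1.77 on the log2 scale. In limma their unadjusted p were 7.88e-05, 6.79e-05, 0.000208 and 0.00526, and their adjusted p 0.128, 0.128, 0.156 and 0.282. The 3 above were the phosphatase genes Ptpn11 (0.95, unadjusted p = 0.0396 and adjusted p = 0.511 in limma) and Ptprc (0.52) and the adaptor gene Sh2b3 (0.45). Control replicate 2 was the lower control for all 3. Ptprc was at 78.6 and 42.2 FPKM in the controls and at 83.1 and 83.3 under DMF, near control replicate 1. The list as a whole had a median of -0.10, beside -0.01 over all tested genes. Of 10 STAT5 response genes, which STAT5 is known to induce in lymphocytes, limma passed 0, 8 lay below both controls and 0 above, where 26.8% and 26.4% of all tested genes did, and the median was -0.74. The largest differences were those of Osm (-2.19), a cytokine, Pim1 (-1.35) and Pim2 (-1.16), survival kinases, and Bcl2 (-1.12), which guards against cell death. Myc and Ccnd2 overlapped between the groups.

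Adaptors and kinases that link the receptors to other pathways showed no common direction. Of 9 tested, limma passed 0, 4 lay below both controls and 2 above, beside 26.8% and 26.4% of all tested genes, with a median of 0.04. Gab2, the untested member of the list, an adaptor, was at 1.67 and 0.815 FPKM in the controls and at 0.319 and 0.122 under DMF. The 4 with the largest differences were Sos1 (0.49), an exchange factor for Ras, Syk (0.47), a kinase of B cell receptor signalling, Pik3cd (-0.46), a PI3 kinase subunit, and Lck (-0.36), the kinase of T cell receptor signalling. Of 6 transcription factors that regulate Il7r, limma passed 0. Runx3 and Ets1 lay below both controls, with differences of -1.14 and -0.89, and Runx1 and Gabpa above both, with 0.38 and 0.33. Of all tested genes, 26.8% lay below and 26.4% above both. Foxo1, the known activator of Il7r, was at 14.5 and 9.28 FPKM in the controls and at 11.8 and 11.6 FPKM in the DMF libraries, between the controls.

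**Figure D5:**
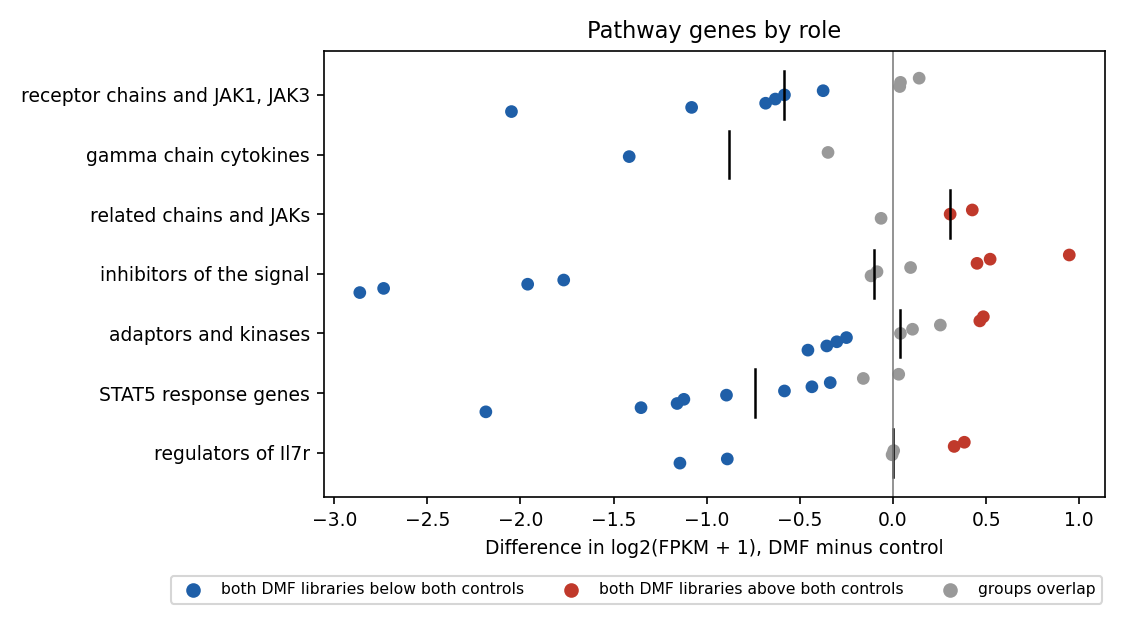
Difference in log2(FPKM + 1), DMF minus control, of each tested gene by role (STAT genes not drawn), with the median of each list as a black bar. Blue points have both DMF libraries below both controls, red points above both, and grey points overlap. The 6 receptor chains with blue points lie between -2.05 and -0.38, and 8 of the 10 STAT5 response genes are blue.

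Markers of the labelled cell type were present. Cd4 was at 128 and 105 FPKM in the controls and at 103 and 100.3 FPKM in the DMF libraries, and Cd3e was at 46.0 to 57.3 FPKM in the 4 libraries. Cd3d was at 144 and 338 FPKM in the controls and at 115 and 117 under DMF, and Cd3g was at 55.3 and 99.6 against 40.8 and 40.8. Of the 5 CD4 T cell markers, 4 were lower in each DMF library than in either control, beside 26.8% of all tested genes. Cd28 overlapped, and the sum of the 5 was 458 and 655 FPKM against 389 and 385. limma passed 0 of the 5, and the part of this in the receptor differences was not tested. The Tfh markers Bcl6, Cxcr5 and Pdcd1 were present in all 4 libraries. They were higher in both DMF libraries and Icos was lower, beside 26.4% and 26.8% of all tested genes. Of 8 myeloid and dendritic cell markers, 6 were under 1 FPKM in every library. Both DMF libraries lay below both controls for 4 of the 8, beside 26.8% of all tested genes. Lyz2 was at 2.40 and 3.33 FPKM in the controls and at 1.58 and 0.407 under DMF, and Cd14 was at 1.44 and 3.29 against 0.487 and 0.613. The summed level of the 8 was 4.64 to 7.47 FPKM in the controls and 1.63 to 3.04 under DMF, and their part in the receptor differences was not tested.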

How the data were processed

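RNA-seq was made from 4 libraries, 2 control and 2 DMF. Per the file headers, the authors deposited FPKM per gene, beside gene names, positions and lengths. The tool edgeR (role not stated) and the build mm8 are named per the submitters' processing notes, while the coordinates of all 10 genes equal those of GENCODE M21 (GRCm38), which is used here. Gene length as deposited equals the union of exons there. The aligner and counting were not given in the sources used here. FPKM times length gave whole multiples of 1 step per library for 100% of values (within 0.01), so reads were recovered, 15900118 to 17516953 per library, against library sizes of 13929627 to 18672223 implied by FPKM. That scaling difference is largest in control replicate 2, with a factor of 0.876.

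limma 3.58.1 (R 4.3.3; lmFit, eBayes with trend) was run on log2(FPKM + 1), DMF minus control, two-sided, over the 12166 genes that averaged 1 FPKM or more, with Benjamini-Hochberg adjustment at 0.05 over all of them. It was also run on simulated data whose replicates differed by random noise alone, so that run does not cover the distance between the controls here. The genes and lists were chosen with earlier results of these data known. All 10 genes are named, with up to 4 tested members of each list by size of difference and others (Foxo1, Stat6, Myc, Ccnd2, Ptpn11, Ptprc, Sh2b3, Gab2, the markers) after their values were seen, and 1 gene of a list is not reported here. Alternatives were other pseudocounts, filters, scalings and variance models, voom, a replicate block, removal of the length trend (lowess, span 0.3) and each library left out. Counting intervals are exact (Clopper-Pearson) at 95%.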

Additional observations from a re-analysis of the deposited data

How the results depend on the processing

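Il2ra, Il2rb, Il2rg, Il4ra and Il7r kept a lower level in DMF under every alternative run that could test them (Il7r is not tested at a mean FPKM of at least 5), and Il9r kept a higher one in the 10 that gave it a value. Quantile normalization left 3 genes below both controls, of which Il2rg was at -0.0764, and the reversed values there were 0.0261 for Il21r, -0.00400 for Il15ra, -0.233 for Il4ra over Il2rg and -0.0470 for Jak1 over Jak3. With the length trend removed limma passed 3 genes of all tested and none of the 10 (adjusted p of 0.0836 for Il7r and 0.0960 for Il2rb), and the reversed values were -0.0402 for Jak1, -0.0267 for Jak3, -0.303 for Il4ra over Il2rg and -0.0137 for Jak1 over Jak3. With the replicate block, 552 genes passed, 1 of them described here, Il7r, whose SE of 0.37 was above that of the main fit. The block changed no other call on these genes. Within-group deviations of same-numbered libraries correlated at -0.0233 over genes, so the numbers are not taken to pair them. The cause of these changes was not tested.

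With 1 library left out at a time, 6 to 7420 genes passed, the latter without control replicate 1, and 0 to 8 of the genes described here. Genes above every control kept numbered 1 to 3 and those below 6 to 8. With a control left out only 1 remained, so Jak1 and Jak3 counted as beyond it though they lie between the 2 controls. Without control replicate 2 the reversed values were -0.223 for Jak1, -0.152 for Jak3, and -0.389, -0.219 and -0.0734 for Il4ra over Il2rg, Il21r over Il2rg and Jak1 over Jak3. Left-out control replicates moved Il2ra over Il2rg from -0.580 to 0.471, Il4ra over Il2rg up to 0.474, Il21r over Il2rg up to 0.733, Jak1 over Jak3 up to 0.281, Jak1 up to 0.504 and Jak3 up to 0.232, while quantile normalization gave 0.347 for Jak1 and 0.398 for Jak3. Without DMF replicate 1 Il15ra was -0.0988, and without DMF replicate 2 it was 0.172. Il9r and Il7r in DMF rest on 28 to 40 reads a library, which limits their precision.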
